A study of Homo sapiens with 9 samples.

Results

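Mitochondrial DNA encodes part of the respiratory chain, and 10 of its protein-coding genes are described here in SKOV3, an established cell line from a human ovarian cancer. The members were chosen by name from the deposited table. They are the 7 mitochondrially encoded subunits of complex I (MT-ND1, MT-ND2, MT-ND3, MT-ND4, MT-ND4L, MT-ND5 and MT-ND6), with MT-CYB of complex III and MT-CO1 and MT-CO3 of complex IV. These are 10 of 32378 genes in the table and 10 of its 13 rows encoded in mitochondrial DNA. RNA was sequenced in 3 libraries labelled control, 3 of cells given Carbo (carboplatin, a platinum drug that crosslinks DNA) and 3 of cells given Carbo+COM33. COM33 is known here by its code name alone. The study asked how COM33 raises the sensitivity of SKOV3 cells to carboplatin. Cells of all groups grew in the same medium with serum, no group received COM33 alone, and neither doses nor times are given. Nothing in the labels says whether the replicates were separate cultures, so p-values cover only the scatter among these libraries, and that scatter may be technical.

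Complex I takes electrons from NADH, passes them to ubiquinone and pumps protons across the inner mitochondrial membrane. Its mitochondrially encoded subunits form the core of the membrane arm, and the remaining subunits are made from nuclear genes. Mitochondrial DNA is transcribed from both strands into long RNAs that are cut apart, mostly at the transfer RNAs lying between the genes. The heavy-strand messenger RNAs then receive a poly(A) tail, which in several of them completes the stop codon. MT-ND6 is the protein-coding gene transcribed from the other strand, and its RNA is known to carry little or no poly(A) tail. The libraries were made from RNA captured on poly-T beads.

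The ends of the members bear on how reads could be assigned, and a few are shown, from GENCODE 29 on GRCh38. In 6 of the 10 members the annotated gene ends within its stop codon, after T or TA. The other members end in TAA (MT-ND4L and MT-ND5) or in AGA or AGG (MT-CO1 and MT-ND6). The last 30 bases of 4 members follow in their own reading direction, with the letters of the stop in capitals. MT-ND3 and MT-CO3 are shown because they departed from the rest, and MT-ND4 and MT-CO1 because they were the highest members of their complexes.
MT-ND3: gactacaaaaaggattagactgaaccgaaT
MT-CO3: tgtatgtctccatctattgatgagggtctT
MT-ND4: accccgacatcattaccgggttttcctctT
MT-CO1: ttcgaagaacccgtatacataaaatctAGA

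Some members touch or overlap another protein-coding gene, and a read across such a junction covers both. How the counting treated such reads is not stated, so counts of these members may miss or share reads at those ends. The junctions between members are shown, and MT-CO3 also shares 1 base with MT-ATP6, which is not a member. MT-ND4L (chrM:10470-10766) and MT-ND4 (chrM:10760-12137) share 7 bases, in capitals in the first line below (chrM:10740-10786, plus strand). MT-ND5 (chrM:12337-14148, plus strand) and MT-ND6 (chrM:14149-14673, minus strand) abut with no gap and face each other. The second line spans that boundary (chrM:14124-14173, plus strand), with the bases of MT-ND6 in capitals.
MT-ND4L and MT-ND4: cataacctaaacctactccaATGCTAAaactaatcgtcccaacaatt
MT-ND5 and MT-ND6: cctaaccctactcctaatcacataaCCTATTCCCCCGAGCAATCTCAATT

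The other members lie at chrM:3307-4262 (MT-ND1), chrM:4470-5511 (MT-ND2), chrM:5904-7445 (MT-CO1), chrM:9207-9990 (MT-CO3), chrM:10059-10404 (MT-ND3) and chrM:14747-15887 (MT-CYB). Each is a single exon without introns. Lengths ran from 297 bp (MT-ND4L) to 1812 bp (MT-ND5), and GC content from 40.2% (MT-ND3) to 47.7% (MT-ND1). Whether the counting used strand is not stated, so reads of MT-ND6 and of RNA from the opposite strand cannot be told apart here. Stretches of 150 bases, the length of a read, were also looked for, letter for letter, in annotated nuclear transcripts. Such shared stretches were found for 202 of 1393 windows of MT-CO1 (MTCO1P12), 140 of 893 of MT-ND2 (MTND2P28) and 9 of 807 of MT-ND1 (MTND1P23), and for 0 windows of the other 7 members. The counting could split reads of these 3 members with their copies, so their values carry that uncertainty. A search for identical stretches cannot clear the other 7. MT-ATP6 also had 0 of 532 windows, yet MTATP6P1, the nuclear pseudogene named after it, held 8332 to 20206 counts per library.

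Total counts ran from 13851760 to 15533668 per library, and all 10 members passed the filter on low counts. The 8 epithelial and ovarian carcinoma markers checked were above 1 CPM (counts scaled to library size with TMM factors) in all 9 libraries, and 0 of 11 markers of other cells were. Within each group 1 library stood apart from its replicates by a chi-square distance per degree of freedom over genes. Control 1 lay at 10.6 and 14.2 from the other control libraries, which were 3.37 from each other. Carbo 1 lay at 15.3 and 26.9 from its replicates (5.84 between those), and Carbo+COM33 3 at 14.1 and 12.1 (3.26 between those). Libraries also differed in how level varied with GC content, by a log2 change per 10 points of GC from 0.05 to 0.13 in control, from -0.15 to -0.01 in Carbo, and at -0.11, -0.07 and 0.09 in Carbo+COM33 1 to 3. Fits with an offset for GC and length are given beside the results. In Carbo vs control the GC trend goes with the group, so the offset removes library bias and any carboplatin change that follows GC alike. These cannot be told apart.

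The members were among the most abundant RNAs of these cells. Together they took 2.22%, 2.64% and 2.79% of all counts in control 1 to 3, 2.84%, 3.17% and 3.05% in Carbo 1 to 3, and 2.83%, 3.08% and 2.37% in Carbo+COM33 1 to 3. The means were 2.55% ± 0.299, 3.02% ± 0.170 and 2.76% ± 0.361 (SD, n = 3 each). Every Carbo library was above every control library, while the Carbo+COM33 libraries spanned both groups. Per length, in deposited FPKM, the highest member in control was MT-CO1, which holds the oxygen-reducing centre of complex IV, at 6222 ± 657 (SD, n = 3), followed by MT-CO3 at 5040 ± 772 and MT-ND4 at 3094 ± 368. MT-CYB (1601 ± 271), MT-ND1 (1579 ± 152), MT-ND2 (1543 ± 130), MT-ND4L (1508 ± 263) and MT-ND3 (1384 ± 55.2) came next. The control ranges of neighbours within that run of 5 overlapped, as did those of MT-CO1 and MT-CO3. MT-ND5 (875 ± 155) and MT-ND6 (432 ± 77.9) were lowest, each with a range apart from the member above it. The 10 members ranked from 1 to 32 among all genes by mean FPKM in control. In bulk RNA, less RNA per cell and fewer cells with that RNA cannot be told apart.

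**Figure D1:**
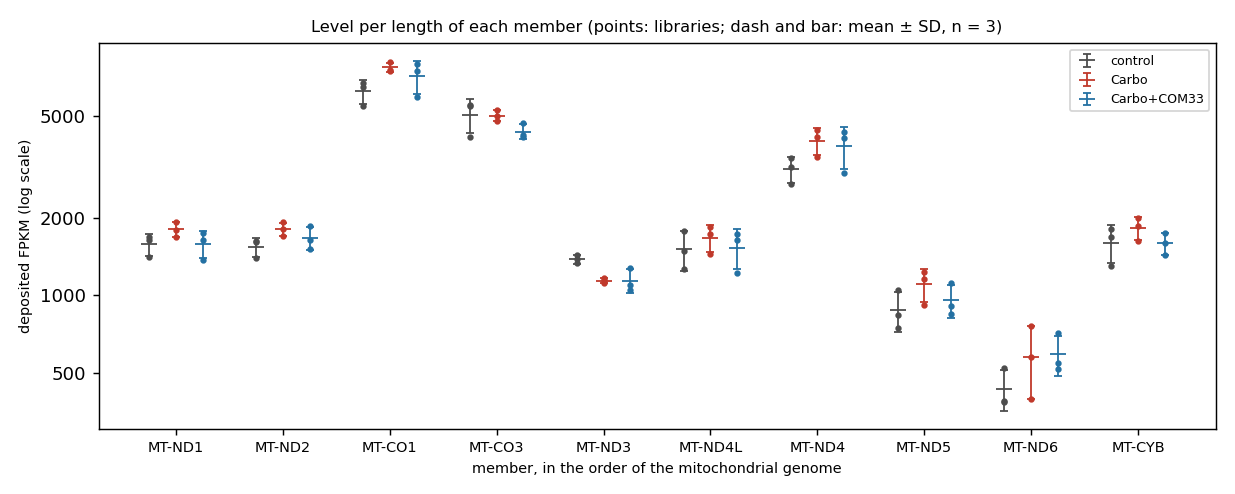
Deposited FPKM (log scale) of the 10 members, in the order of the mitochondrial genome, in control, Carbo and Carbo+COM33. Points are libraries, and the dash and bar are mean ± SD (n = 3). MT-CO1 was highest and MT-ND6 lowest in each group, and MT-ND3 was lower in the Carbo libraries than in control.

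Carbo vs control asked what carboplatin did to these RNAs. Most members were higher with carboplatin by a small amount, MT-CO3 was level, and MT-ND3 was lower. When the libraries were paired by replicate number, a choice made from these data, 8 of 10 members passed the test. MT-ND1, MT-ND2, MT-ND4, MT-ND5, MT-ND6, MT-CYB and MT-CO1 rose, and MT-ND3 fell. Of all genes tested in the paired fit, 23.4% were called, 11.6% upward and 11.9% downward. In the unpaired fit of all 9 libraries, 0 of 10 members were called by edgeR's quasi-likelihood test, as were 0% of all genes. DESeq2 also called 0 members, against 1.17% of genes. At an unadjusted p under 0.05 the unpaired edgeR fit had 5 of 10 members, against 16.7% of genes. The unpaired fit was the main test. The labels number the replicates but do not say that equal numbers belong together. Pairing was chosen because same-numbered control and Carbo libraries deviated together across genes, and the paired calls depend on that choice. Since it was picked from the same counts, the paired p-values may be too small. The log2 change per 10 points of GC also fell with replicate number, at 0.126, 0.116 and 0.048 in control and -0.008, -0.043 and -0.149 in Carbo. Whether that trend accounts for the shared deviations was not tested. The median log2 fold change of the members was 0.21 in both fits, against 0.0009 and -0.002 over all genes.

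MT-ND2, MT-ND4 and MT-ND5 are the antiporter-like subunits through which protons are thought to cross the membrane arm. MT-ND4 stood at 3729, 4293 and 4689 CPM in control 1 to 3, at 4741, 5641 and 6055 in Carbo 1 to 3, and at 5729, 6017 and 4172 in Carbo+COM33 1 to 3. All Carbo libraries were above all control libraries, and Carbo+COM33 3 fell within the control range. Its log2 fold change in Carbo vs control was 0.37 ± 0.14 (SE) unpaired (edgeR adjusted p = 0.251) and 0.37 ± 0.04 paired (adjusted p = 2.28e-05). MT-ND5 was at 1351, 1497 and 1880 CPM in control, 1650, 2068 and 2231 in Carbo, and 1671, 2042 and 1546 in Carbo+COM33. Its control and Carbo ranges overlapped through control 3 and Carbo 1, although each Carbo library was above the control library of its number. The paired log2 fold change of MT-ND5 was 0.33 ± 0.05 (adjusted p = 0.000143, and 0.281 unpaired). MT-ND2 was at 1456, 1655 and 1683 CPM in control, 1761, 1976 and 1881 in Carbo, and 1741, 1952 and 1596 in Carbo+COM33. Control and Carbo did not overlap, and the paired log2 fold change was 0.23 ± 0.04 (adjusted p = 0.00149, and 0.273 unpaired).

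MT-ND1 lies where the membrane arm meets the arm that holds the redox centres, beside the ubiquinone site. It stood at 1346, 1555 and 1599 CPM in control, 1707, 1815 and 1613 in Carbo, and 1600, 1683 and 1320 in Carbo+COM33. Control and Carbo were apart, but control 3 and Carbo 3 differed by a log2 ratio of only 0.01. The paired log2 fold change was 0.19 ± 0.05 (adjusted p = 0.0177, and 0.368 unpaired). For MT-ND1 it was 0.11 without pair 1 (adjusted p = 0.107) and 0.28 without pair 3 (adjusted p = 8.40e-07). Paired fits with a pair left out had 1 residual degree of freedom, so a smaller p-value there is not stronger evidence.

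MT-ND3 carries a loop near the ubiquinone site that moves between the active and resting forms of the enzyme. It was the member that went the other way, at 479, 455 and 494 CPM in control, 393, 397 and 385 in Carbo, and 368, 383 and 446 in Carbo+COM33. Every control library was above all 6 libraries with carboplatin. The pairs differed by log2 ratios of -0.28, -0.20 and -0.36, and the fitted log2 fold change was -0.28 ± 0.08 unpaired (adjusted p = 0.220) and -0.28 ± 0.05 paired (adjusted p = 0.000338). MT-ND3 has the lowest GC content of the members, and with the offset for GC and length its paired log2 fold change was -0.36 (adjusted p = 8.50e-06).

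MT-ND4L and MT-ND6 are small membrane subunits that sit between MT-ND3 and the antiporter-like subunits. MT-ND6 was at 205, 200 and 272 CPM in control, 205, 298 and 400 in Carbo, and 291, 377 and 274 in Carbo+COM33. It varied most of the members, 2.0 times between its lowest and highest library. Control 1 and Carbo 1 were level, and the log2 ratio was 0.58 and 0.56 in pairs 2 and 3. The paired log2 fold change was 0.38 ± 0.08 (adjusted p = 0.00164, and 0.317 unpaired). MT-ND4L was at 441, 370 and 525 CPM in control, 428, 509 and 546 in Carbo, and 498, 519 and 367 in Carbo+COM33. Its 3 groups overlapped, and it was not called in the paired fit (log2 fold change 0.15 ± 0.07, adjusted p = 0.112). That depended on the libraries used: the paired value of MT-ND4L was 0.004 without pair 2 (adjusted p = 0.980) and was called without pair 1 (0.25, adjusted p = 1.55e-05) and without pair 3 (0.21, adjusted p = 0.000754). Those fits without a pair had 1 residual degree of freedom. Unpaired, MT-ND4L was 0.03 without control 2 and 0.29 without control 3, and it was not called in either.

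The members outside complex I gave mixed values. MT-CO1 was at 8461, 9880 and 10262 CPM in control, 11569, 12304 and 11517 in Carbo, and 11714, 12408 and 9224 in Carbo+COM33, with Carbo above control throughout. Its paired log2 fold change was 0.31 ± 0.05 (adjusted p = 0.000513, and 0.250 unpaired). MT-CYB, the subunit of complex III that holds its b haems, was at 1484, 1904 and 2058 CPM in control, 1846, 2245 and 2129 in Carbo, and 1853, 2023 and 1657 in Carbo+COM33. The groups overlapped and each Carbo library was above its numbered control (paired log2 fold change 0.20 ± 0.05, adjusted p = 0.00967, and 0.440 unpaired). The unpaired value of MT-CYB was 0.19, against 0.07 without control 1 (adjusted p = 0.852) and 0.29 without control 3 (adjusted p = 0.297). MT-CO3, a core subunit of complex IV without metal centres, was at 3260, 4277 and 4240 CPM in control, 3885, 4065 and 3733 in Carbo, and 3359, 3702 and 3265 in Carbo+COM33. Carbo lay within the control range. The paired log2 fold change of MT-CO3 was -0.004 ± 0.06 (adjusted p = 0.973), with a higher value in 1 of 3 pairs.

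**Figure D2:**
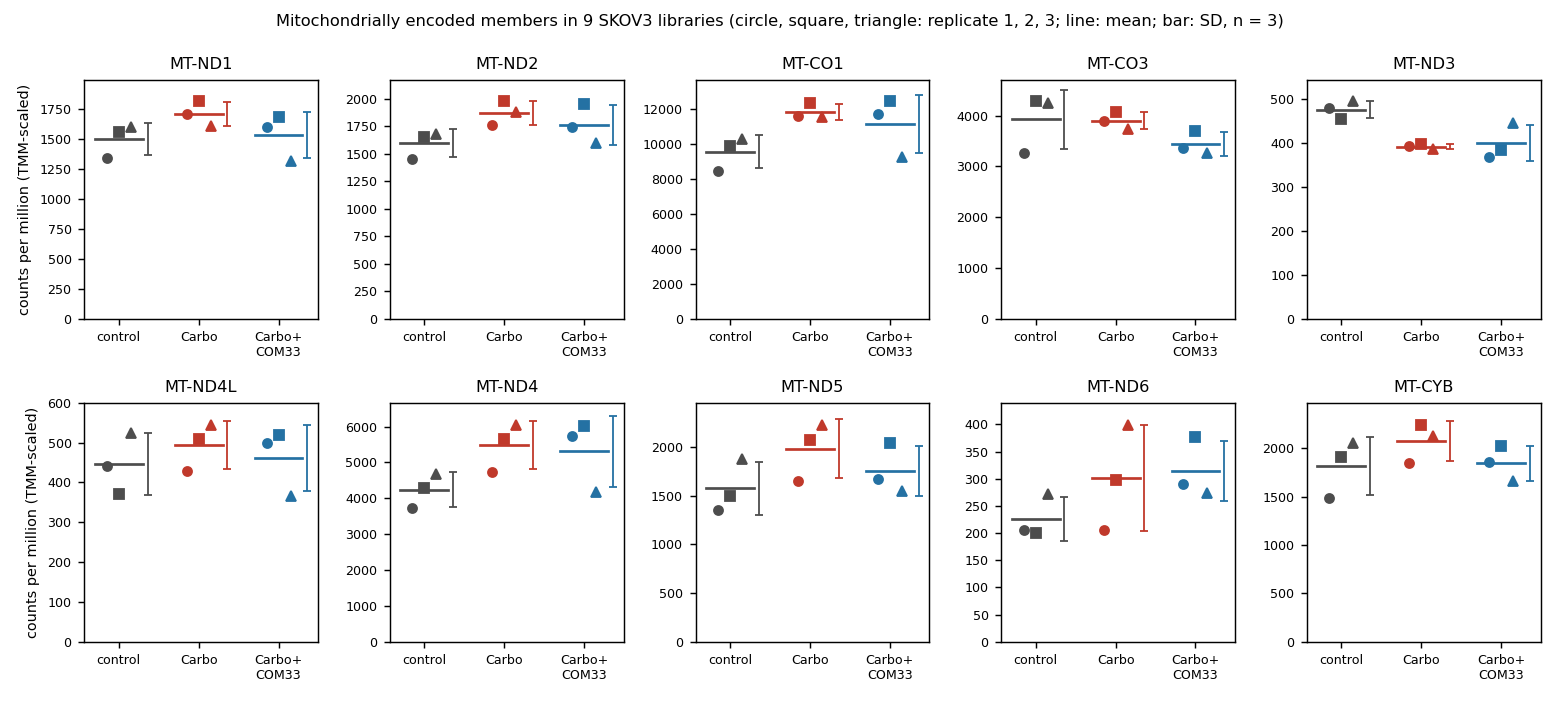
TMM-scaled CPM of the 10 members in each library. Circles, squares and triangles are replicates 1, 2 and 3, lines are means and bars SD (n = 3). MT-ND1, MT-ND2, MT-CO1 and MT-ND4 in Carbo lie above every control library, MT-ND3 lies below, and Carbo+COM33 3 is the lowest of its group for 9 members.

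By their CPM ranges, 4 members were higher in every Carbo library than in any control library (MT-ND1, MT-ND2, MT-CO1 and MT-ND4) and 1 was lower (MT-ND3). Among all genes, ranges did not overlap for 22.5%, with 10.8% higher and 11.7% lower. With the offset for GC and length, the paired fit again called 7 members up and 1 down, against 10.9% of genes. Without control 2 and Carbo 2 the paired fit called 3 members, MT-ND4 and MT-ND5 up and MT-ND3 down, and 8.06% of all genes. It called 8 members and 26.6% of genes without replicate 1, and 9 members and 18.1% of genes without replicate 3. In the unpaired fit without Carbo 1, 1 member was called, MT-ND6 (log2 fold change 0.63, edgeR adjusted p = 0.0328), and 6.08% of genes. Without Carbo 3 the value of MT-ND6 was 0.16 (adjusted p = 0.805). An unpaired fit without control 1, Carbo 1 and Carbo+COM33 3, chosen after seeing the data, called MT-ND2, MT-CO1, MT-ND4, MT-ND5 and MT-ND6 up and MT-ND3 down, with 14.1% of genes called.

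Carbo+COM33 vs Carbo asked what COM33 added. By edgeR 0 of 10 members were called, against 4.96% of all genes, and 0 of 10 had an unadjusted p under 0.05, against 22.4%. DESeq2 called 0 members, against 8.83% of genes. Log2 fold changes ran from -0.18 ± 0.11 (SE, MT-CO3) to 0.06 ± 0.20 (MT-ND6), with a median of -0.09, against -0.006 over all genes. MT-CO3 was the member whose groups did not overlap, with 3265 to 3702 CPM in Carbo+COM33 and 3733 to 4065 in Carbo (adjusted p = 0.354). Of all genes, 23.7% did not overlap, 11.7% higher and 11.9% lower. For MT-ND6, with SDs of 97.2 CPM in Carbo and 55.3 CPM in Carbo+COM33, the SE was the widest of the members. The signs of small differences followed single libraries: without Carbo+COM33 3, MT-CO1, MT-ND4 and MT-ND4L turned to 0.03, 0.10 and 0.04 and MT-ND3 to -0.06. MT-ND6 turned to -0.15 without Carbo 1 and to -0.09 without Carbo+COM33 2, and MT-ND4 turned to 0.03 without Carbo 3.

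**Figure D3:**
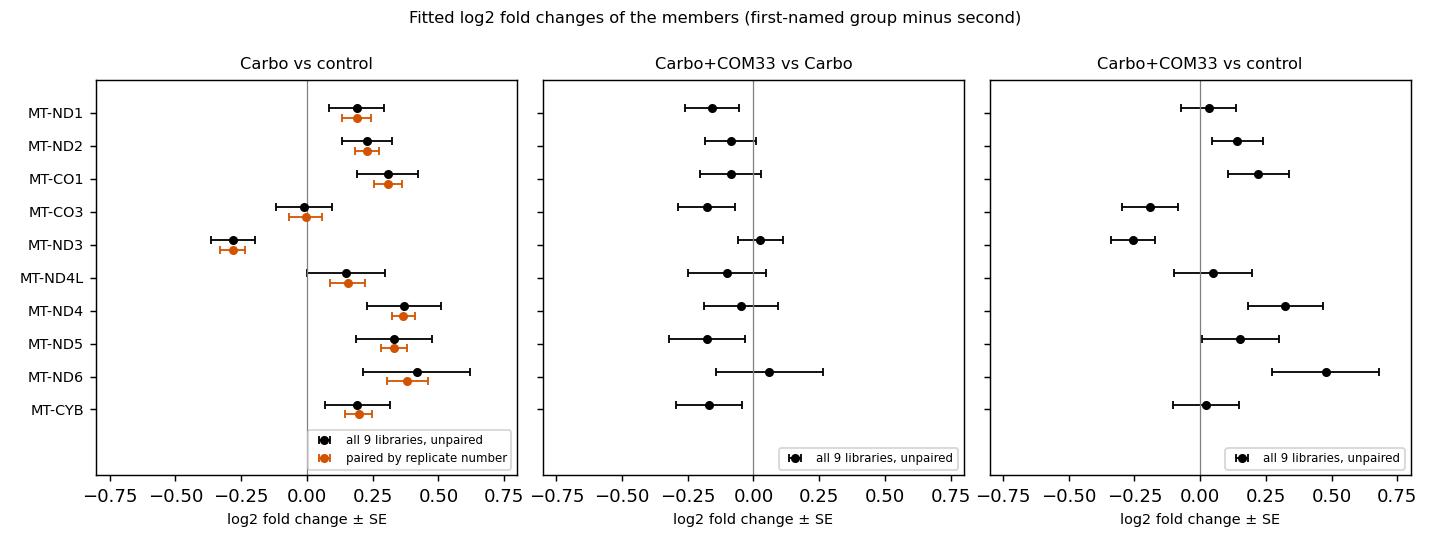
Log2 fold changes (points) with SE (bars) of the 10 members in 3 comparisons, from the unpaired fit of 9 libraries (black) and, for Carbo vs control, the paired fit (orange). The estimates of both fits lie close together while the SE is smaller with pairing, and in Carbo+COM33 vs Carbo the values lie between -0.18 and 0.06.

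Carbo+COM33 vs control shares its control libraries with the first comparison and its treated libraries with the second, so it adds no independent data. MT-ND6, MT-ND4 and MT-CO1 had the highest values and MT-ND3 the lowest, and 0 of 10 members were called, against 6.29% of genes. At an unadjusted p under 0.05 there were 3 members, against 24% of genes: MT-ND3 at -0.25 ± 0.08 (edgeR adjusted p = 0.0889), MT-ND4 at 0.32 ± 0.14 (adjusted p = 0.181) and MT-ND6 at 0.48 ± 0.20 (adjusted p = 0.172). DESeq2 called 0 members and 10.8% of genes. MT-ND6 was higher in all Carbo+COM33 libraries than in any control library and MT-ND3 was lower, and the other 8 members overlapped. Among all genes 28.7% did not overlap, 14.3% higher and 14.4% lower. Without Carbo+COM33 3, MT-CO1 and MT-ND4 were called up (0.34 and 0.47) and MT-ND3 down (-0.34), with 13% of genes called. Without Carbo 1, which is in neither group but enters the shared spread, MT-ND6 was called (0.48, adjusted p = 0.0434), as were 10.7% of genes. Without control 1, Carbo 1 and Carbo+COM33 3, chosen after seeing the data, 5 members and 28% of genes were called, with MT-CO1, MT-ND4 and MT-ND6 up and MT-ND3 and MT-CO3 down.

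The 3 libraries that stood apart by the chi-square distance were low in most members. Carbo+COM33 3 was the lowest of its group for 9 of 10 members and the highest for MT-ND3. Control 1 was the lowest for 7 members and Carbo 1 for 6. By contrast, control 3 and Carbo+COM33 2 were each the highest of their group for 9 members. Across the 9 libraries, the log2 CPM of each member was set against the mean of the other 9, as a description, since the values share libraries and scaling. Pearson's r was between 0.68 (MT-ND6) and 0.96 (MT-ND5) for 8 members, 0.36 for MT-CO3 and -0.64 for MT-ND3.

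Ratios of counts within a library do not depend on its scaling, and they show which members changed unequally. MT-ND3 relative to MT-ND4, genes of the same strand, was 0.128, 0.106 and 0.105 in control, 0.0829, 0.0704 and 0.0636 in Carbo, and 0.0643, 0.0637 and 0.107 in Carbo+COM33. Every Carbo library was below every control library, and Carbo+COM33 3 alone of its group lay in the control range. MT-CO3 relative to MT-CO1, the subunits of 1 complex, was 0.385, 0.433 and 0.413 in control, 0.336, 0.330 and 0.324 in Carbo, and 0.287, 0.298 and 0.354 in Carbo+COM33. Both carboplatin groups were below control. MT-CO3 and MT-ND3 are neighbours on the genome, with a transfer RNA gene between them, and they were also the members whose share of all mitochondrially encoded counts was lower in every Carbo library than in any control library. That share went from 12.9% ± 0.797 to 10.8% ± 0.682 (SD, n = 3) for MT-CO3 and from 1.58% ± 0.186 to 1.08% ± 0.0648 for MT-ND3. No test was made on shares or ratios.

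The overlapping pair MT-ND4L and MT-ND4 kept a nearly fixed ratio in treated cells. MT-ND4L over MT-ND4 was 0.0903, 0.0903 and 0.0901 in Carbo and 0.0870, 0.0862 and 0.0879 in Carbo+COM33. It scattered in control, at 0.118, 0.0862 and 0.112. For the abutting pair, MT-ND6 over MT-ND5 was 0.152, 0.133 and 0.145 in control, 0.124, 0.144 and 0.179 in Carbo, and 0.174, 0.185 and 0.177 in Carbo+COM33. The Carbo+COM33 libraries were above every control library, and Carbo spanned both.

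**Figure D4:**
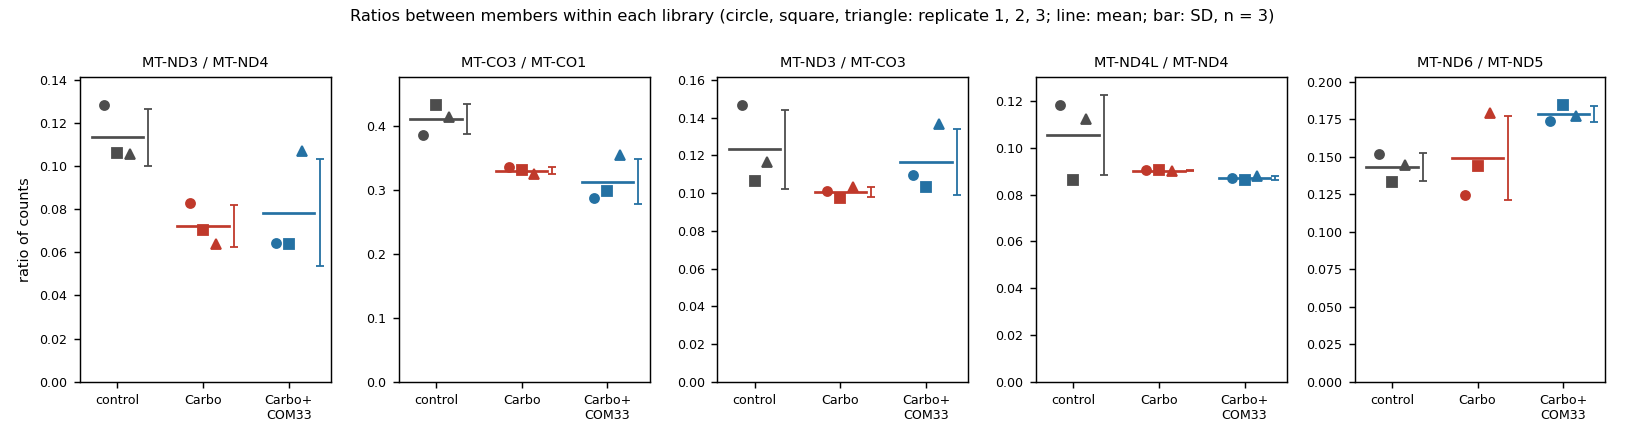
Ratios of the counts of member pairs within each library, by group, with axes from 0. Circles, squares and triangles are replicates 1, 2 and 3, lines are means and bars SD (n = 3). MT-ND3 / MT-ND4 and MT-CO3 / MT-CO1 are lower in every Carbo library than in control, and MT-ND4L / MT-ND4 is nearly constant in Carbo.

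Of the 3 mitochondrially encoded rows that are not members, MT-CO2 and MT-ATP6 passed the filter and both rose in the paired fit (log2 fold changes 0.33 and 0.20, adjusted p = 0.000311 and 0.00412). MT-ATP8 had at most 0.572 CPM in a library. It overlaps MT-ATP6, which stood at 1393 to 2187 CPM, and how shared reads were counted is not stated. The low value therefore does not show that MT-ATP8 RNA was absent. Of 100 rows named as nuclear pseudogenes of mitochondrial genes, 5 were tested in the paired fit. MTATP6P1, on chromosome 1, rose by a log2 fold change of 0.71 (adjusted p = 1.24e-06), from 663 ± 92.5 to 1112 ± 311 CPM. Its counts are uncertain, since reads of MT-ATP6 may have been counted there, which was not tested. MTCO1P12, which shares stretches with MT-CO1, fell from 21.4 ± 4.07 to 13.8 ± 2.57 CPM (log2 fold change -0.63, adjusted p = 0.000190), in the direction opposite to MT-CO1. In the unpaired fit MT-CO2, MT-ATP6, MTATP6P1 and MTCO1P12 were not called (edgeR adjusted p = 0.282, 0.427, 0.229 and 0.266).

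In the paired fit of Carbo vs control, 10 of 37 nuclear subunits of complex I fell and 0 rose, beside the 11.9% of all genes called down and 11.6% called up. Their median log2 fold change was -0.13. None of the nuclear genes named for this comparison was called in the unpaired fit. NDUFV1, which binds NADH in the enzyme, changed by -0.33 (adjusted p = 0.00121). Among the accessory subunits, which surround the catalytic core, NDUFA1 (-1.12, adjusted p = 6.14e-06), NDUFB3 (-0.67, 0.000732), NDUFC1 (-0.63, 0.00231) and NDUFB7 (-0.37, 0.00394) had the smallest adjusted p. NDUFA1, NDUFB3 and NDUFC1 were low in level, at 8.53 to 19.0 CPM in group means, and share 44.5%, 19.8% and 18.5% of their exon bases with other genes, so their counts are uncertain. With the GC and length offset the split was 6 down and 1 up (NDUFB11, 0.23), beside the 10.9% of all genes called in either direction, and NDUFV1 (-0.16, 0.135) and NDUFB7 (-0.03, 0.878) were no longer called. Of 16 assembly factors of complex I, 1 fell: NDUFAF8 at -0.20 (adjusted p = 0.0477), which turned to 0.08 with the offset. With it 2 assembly factors were called up, ECSIT (0.33, adjusted p = 0.0176) and NDUFAF3 (0.24, adjusted p = 0.0464), and 0 down. NDUFB11, ECSIT and NDUFAF3 were singled out after their values were seen.

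Nuclear subunits of complex IV went the same way, with 6 of 11 down and 0 up and a median of -0.21, beside 11.9% of all genes down and 11.6% up. COX5B (-0.56, adjusted p = 8.83e-06), COX6B1 (-0.64, 0.000152), COX8A (-0.80, 0.000378) and COX5A (-0.38, 0.000723) led them. With the offset 8 of 11 were called down, beside 808 of all 16104 genes tested. In complex III 2 of 8 fell, UQCR10 (-0.36, 0.00782) and CYC1 (-0.26, 0.0100). With the offset CYC1 was 0.03 and not called, and 2 of 8 were still called down, UQCR10 among them. COX8A shares 34.5% of its exon bases with another gene, and 6 and 7 pseudogenes are named after COX5B and COX6B1, so these counts too are uncertain.

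Genes that make and handle mitochondrial RNA were mixed in the paired fit of Carbo vs control, which called 11.6% of all genes up and 11.9% down. Of 15 transcription and replication genes, TFAM, which packages mitochondrial DNA and starts its transcription, rose by 0.16 (adjusted p = 0.0324), and TOP1MT (-0.34, 0.00893) and POLRMT, the mitochondrial RNA polymerase (-0.16, 0.0191), fell. Of 18 RNA processing genes, LRPPRC, which stabilises mitochondrial messenger RNAs, rose by 0.24 (0.00119), and HSD17B10 (-0.25, 0.00825) and FASTK (-0.26, 0.0109) fell. With the offset for GC and length these 6 genes were not called, and POLRMT was at 0.14. The paired fit with the offset called 1 other transcription and replication gene, downward, and 0 of the 18 RNA processing genes, beside 10.9% of all genes. Of 5 tested regulators of mitochondrial biogenesis, GABPA rose by 0.41 (0.000217) and ESRRA fell by 0.55 (3.84e-05), and both kept their direction and call with the offset.

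In Carbo+COM33 vs Carbo, 1 of 37 nuclear complex I subunits was called by edgeR, NDUFV2 at -1.02 (adjusted p = 0.0375), at 2.87 ± 0.197 CPM in Carbo and 1.41 ± 0.143 CPM in Carbo+COM33 (SD, n = 3). NDUFV2 shares 28.4% of its exon bases with another gene. The assembly factor TMEM126B was called up, by 0.46 (adjusted p = 0.0379). Neither was called when only those 2 groups were fitted without the offset. With the replicate block and the offset on those 2 groups, TMEM126B was called (0.50, adjusted p = 0.0230) and NDUFV2 was not (adjusted p = 0.0678). With the offset in the fit of 9 libraries both kept their call (adjusted p = 0.0408 for NDUFV2 and 0.0196 for TMEM126B). In the fit of 9 libraries without the offset the medians were 0.13 for the 37 subunits and 0.30 for the 11 nuclear complex IV subunits, against -0.006 over all genes. That fit called 0 of the 11, and 4.96% of all genes. With the replicate block and the offset, 2 of the 11 were called up and 0 down, beside 6.65% of all genes. In Carbo+COM33 vs control, the calls in these lists were NDUFA5 (0.35, 0.0415), COX5A (-0.41, 0.0474), POLRMT (-0.35, 0.0313) and PDE12 (0.43, 0.0154), which removes poly(A) tails from mitochondrial RNA. With the offset in the fit of 9 libraries NDUFA5 and COX5A missed the threshold (adjusted p = 0.225 and 0.0562), and POLRMT was at -0.07 (0.688). With the replicate block and the offset on Carbo+COM33 and control alone, COX5A was called (-0.39, edgeR adjusted p = 0.0212). NDUFA5 was not called there (adjusted p = 0.226), and 12 pseudogenes are named after it, so its counts are uncertain. PDE12 kept its call (0.36, adjusted p = 0.0233).

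**Figure D5:**
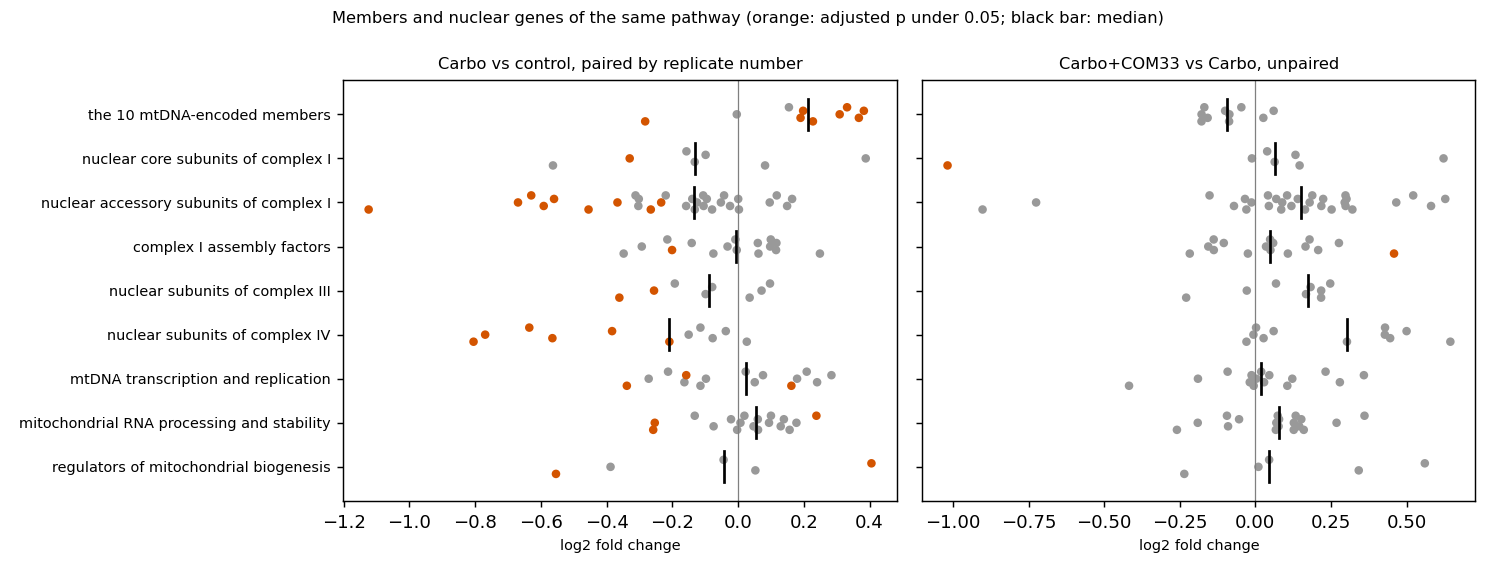
Log2 fold changes of the 10 members and of nuclear genes of the same pathway, in Carbo vs control (paired) and Carbo+COM33 vs Carbo (unpaired). Each point is a gene, orange where the adjusted p was under 0.05, and the black bar is the list's median. In Carbo vs control the members' median is 0.21, and those of the nuclear subunits of complexes I and IV lie below 0.

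The nuclear genes whose log2 CPM over the 9 libraries was most like the mean of the members, among 6588 genes, were TOR1A (Pearson's r = 0.98), MFF (0.97), RAP1GDS1 (0.97), KTN1 (0.96) and HSPH1 (0.96). These values share libraries and scaling and are given without a p.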

How the data were processed

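The authors deposited whole-number read counts per gene for 9 libraries, with FPKM beside them. The submitters' processing notes name GRCh38, DESeq2 1.26.0, HTSeq 0.11.2 and HISAT2. Deposited FPKM of the members equalled count over length and library total within 4.8e-12. All 32378 identifiers and names matched GENCODE 29. The members and gene lists were chosen with earlier results of these data known. Counts were tested with edgeR 4.0.16: filterByExpr by group (16450 genes), TMM factors (0.982 to 1.01), a quasi-likelihood fit of 9 libraries with a coefficient per group, and Benjamini-Hochberg adjustment over all genes tested, with calls under 0.05. The SE is the log2 fold change over the root of F. Departures from the group mean in control and Carbo libraries of the same number correlated at 0.825, 0.565 and 0.748 (6601 genes with mean log2 CPM over 5), each best with its own number. Their replicate numbers were therefore taken as pairs, and a fit with the replicate block on these 6 libraries (16104 genes, 2 residual degrees of freedom) is given beside the unpaired values. Same-numbered Carbo+COM33 libraries correlated at -0.01, 0.14 and -0.39 with Carbo and at 0.08, 0.10 and -0.42 with control, so no pairing was used there. From each list, genes called in a comparison (for Carbo vs control in the paired fit, a choice made after seeing the data) are named, at most 4 by smallest adjusted p. Alternatives were RLE factors, library totals alone, library sizes without mitochondrial rows, no filter, DESeq2 1.42.0, limma 3.58.1 on log2(FPKM + 1), fits of the 2 groups compared, the replicate block, an offset for each library's GC and length trend, and leaving out libraries or pairs. Fits with the replicate block and a pair left out had 1 residual degree of freedom. Software was R 4.3.3, matplotlib 3.10.9, numpy 2.4.6, pandas 2.3.3 and Python 3.11.15.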

Additional observations from a re-analysis of the deposited data

How the results depend on the processing

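Members called in Carbo vs control (0 of 10 unpaired) numbered 4 without a filter (2.87% of all genes called), 8 with the replicate block (23.4%), 8 with the block and the GC and length offset (10.9%), 6 without control 1, Carbo 1 and Carbo+COM33 3 (14.1%, chosen after seeing the data), 0 to 1 when each library was left out (the 1 without Carbo 1, 6.08%), and 8, 3 and 9 in the block without replicate 1, 2 or 3 (26.6%, 8.06% and 18.1%). In Carbo+COM33 vs control (0 of 10) they numbered 2 without a filter (5.97% of all genes), 1 with only those groups fitted (9.08%), 1 with block and offset (10.5%), 5 without the 3 libraries (28%), 0 to 3 over single libraries (3 without Carbo+COM33 3, 13%), and 1 and 8 in the block without replicate 1 or 3 (5.86% and 31.4%). In Carbo+COM33 vs Carbo the block without replicate 3 gave 1 (MT-ND6, 0.42, adjusted p = 0.00548), with 7.5% of all genes called. In these 2 comparisons the replicate numbers pair no libraries, and the block with all replicates called no member. The other settings kept each count at 0.

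Signs turned for small log2 fold changes. MT-CO3 in Carbo vs control was 0.00011 with limma, 0.0058 with the offset, 0.019 with block and offset, 0.033 and 0.092 in the block without replicate 2 or 3, and -0.13 to 0.054 over single libraries. In the same comparison NDUFAF8, CYC1 and POLRMT were 0.070, 0.035 and 0.14 with the offset, and 0.076, 0.033 and 0.14 with block and offset.

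In Carbo+COM33 vs Carbo, leaving out single libraries gave -0.17 to 0.032 for MT-CO1, -0.061 to 0.086 for MT-ND3, -0.14 to 0.10 for MT-ND4, -0.19 to 0.041 for MT-ND4L and -0.15 to 0.32 for MT-ND6. Without the 3 libraries MT-CO1 was 0.031, MT-ND3 -0.045, MT-ND4 0.019 and MT-ND6 -0.049. In the block without replicate 3, MT-CO1 was 0.016, MT-ND3 -0.072, MT-ND4L 0.12, MT-ND4 0.18 and MT-ND5 0.0011. MT-ND6 was -0.094 and -0.020 in the block without replicate 1 or 2, and MT-ND3 was -0.0011 with library totals alone and -0.0062 with limma.

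In Carbo+COM33 vs control, leaving out single libraries gave -0.033 to 0.13 for MT-ND1, -0.061 to 0.19 for MT-ND4L and -0.097 to 0.12 for MT-CYB. In the block without replicate 1 these were -0.082, -0.016 and -0.11, and without replicate 2 MT-ND1 was -0.016 and MT-ND4L -0.17. MT-CYB was -0.0045 with library totals alone and -0.024 without the 3 libraries. The cause was not tested for any of these. Each group had 3 libraries, and every member had at least 2961 counts in each library. The highest CPM of a member over the 9 libraries was 1.31 (MT-CO3) to 2.0 (MT-ND6) times its lowest. What limits the members' precision was not tested.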
